A study of Homo sapiens with 12 samples.

Results

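Kynurenic acid (KynA) at 50 µM was compared with its solvent DMSO after 24 h in the established glioblastoma line U-87MG, of human origin, on 4 arrays per group. These 8 arrays were all those that the labels give to KynA or DMSO among 12 in the series. The other 4 arrays came from the same cells given 100 nM FICZ (6-formylindolo(3,2-b)carbazole), a tryptophan photoproduct and potent ligand of the aryl hydrocarbon receptor (AHR). All 3 groups, the DMSO controls included, carried a stable lentiviral control shRNA (shCtrl), and DMSO in the medium did not exceed 0.2%. The sources used here do not say whether the shCtrl line was 1 clone or a mixed population. The labels call the 4 samples of a group biological replicates. They do not say whether a replicate number marks a shared culture or day, and p-values therefore speak only of how far these samples scatter, in part perhaps for technical reasons.

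Values are log2 signals per transcript cluster, the set of array probes that reads 1 transcript locus. Of 15759 clusters, 13577 had exactly 1 gene symbol, and these stood for 13530 genes. Of these genes, 10807 lay above the 25th percentile of their array (7.69 to 7.74 on the log2 scale) in at least 4 arrays and were tested; the other 2723 were dim. A dim gene enters the test when 1 group alone brings it above that level, so the tested genes are not all genes. Correlations between arrays ran from 0.938 to 0.975 and array medians from 8.30 to 8.33. All 7 measured markers of mesenchymal glioma lines, among them the intermediate filament VIM and the matrix protein FN1, passed the filter. Their mean signal lay between 11.46 and 11.57 in the DMSO arrays and between 11.44 and 11.50 in the KynA arrays. The mean signals of astrocyte, neuron, oligodendrocyte, myeloid and endothelial markers overlapped between the groups as well. For the 5 myeloid markers, for example, the mean ran from 7.79 to 8.29 with DMSO and from 8.02 to 8.30 with KynA.

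KynA is made from kynurenine, a breakdown product of tryptophan, by kynurenine aminotransferases. It blocks ionotropic glutamate receptors, activates the G protein-coupled receptor GPR35 and can act as a ligand of AHR. AHR is a basic helix-loop-helix transcription factor that waits in the cytoplasm with HSP90 chaperones, moves to the nucleus when a ligand binds, pairs with ARNT and binds DNA elements with the core GCGTG. Its textbook targets are cytochrome P450 enzymes of the CYP1 family and its own inhibitors AHRR and TIPARP, and tryptophan metabolites that activate it are studied in glioblastoma as signals that tumour cells make themselves.

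The question the design poses is which transcripts differ after KynA. Without pairing, 1 of 10807 genes passed at an adjusted p under 0.05 (0.00925%), in limma's fit over all 12 arrays with Benjamini-Hochberg adjustment. That gene was SLC16A6, of the monocarboxylate transporter family. When the replicate number was added as a block, 6 genes passed (0.0555%), all of them higher with KynA: SLC16A6, the cytokine IL1B, the cytochrome P450 enzyme CYP1B1, the secreted glycoprotein STC2, the chemokine CCL2 and the ADP-ribosyltransferase TIPARP. No gene passed in the lower direction in either fit.

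The 4 DMSO arrays of SLC16A6 (transcript cluster 16848074) read 6.98, 7.36, 7.68 and 7.64, in the order of replicate numbers 1 to 4. Its 4 KynA arrays read 8.91, 8.49, 8.87 and 8.62. Every KynA array lay above every DMSO array, and the KynA arrays lay closer together than the DMSO arrays. SLC16A6 rose by 1.31 ± 0.139 on the log2 scale (SE, n = 4 per group; 2.47-fold; limma adjusted p = 0.002), with a 95% interval of 1.01 to 1.604. The DMSO mean of 7.42 ± 0.322 (SD, n = 4) lay below the filter level, so the size of the rise is read from a dim start.

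Between arrays of equal replicate number SLC16A6 was higher with KynA by 1.93, 1.13, 1.19 and 0.98. The block left its SE nearly as it was, at 0.136, and its adjusted p was 0.00737. When the block was fitted to the 8 DMSO and KynA arrays alone, no gene passed. SLC16A6 had an adjusted p of 0.0805 there with the same difference. An unadjusted limma p under 0.05 was found there for 542 of 10807 genes, about the share that this threshold passes when no gene differs. Without the block, SLC16A6 passed in every fit that left out 1 array, with differences from 1.16 (without DMSO 1) to 1.39 (without DMSO 3).

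**Figure D1:**
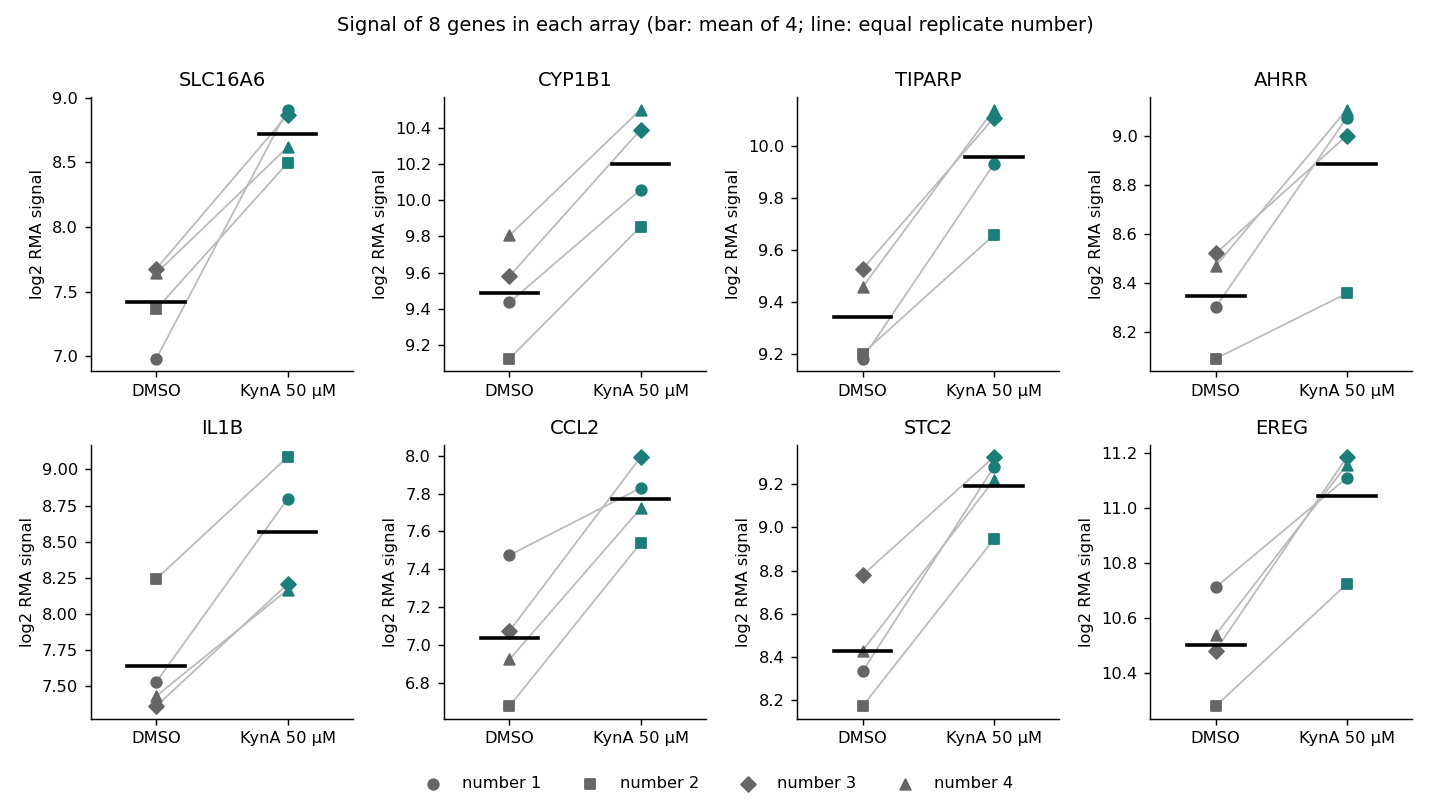
Log2 signal (vertical axis) of 8 genes in the 4 DMSO and 4 KynA arrays (horizontal axis). Bars are group means, symbols are replicate numbers and grey lines join arrays of equal number. The groups do not overlap for 6 of these genes, and they overlap for IL1B and AHRR.

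Next in order of the unadjusted p stood STC2, a secreted stanniocalcin glycoprotein linked to calcium and phosphate handling and to the unfolded protein response. Its DMSO arrays read 8.33, 8.17, 8.78 and 8.43, and its KynA arrays read 9.28, 8.95, 9.33 and 9.22. The groups did not overlap. The difference was 0.76 ± 0.137 on the log2 scale (SE, n = 4; adjusted p = 0.284), and the same difference passed in the fit with the block (adjusted p = 0.0216).

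CYP1B1, the AHR target enzyme that oxidises estradiol and polycyclic aromatic hydrocarbons, read 9.44, 9.13, 9.58 and 9.81 with DMSO and 10.06, 9.85, 10.39 and 10.50 with KynA. Arrays with number 2 were lowest and arrays with number 4 highest in both groups, and the groups did not overlap. The difference was 0.71 ± 0.165 (SE, n = 4; adjusted p = 0.494 without the block). The 4 differences at equal number were 0.62, 0.73, 0.81 and 0.69, and with the block the SE became 0.0824 and the adjusted p 0.0134.

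TIPARP, the mono-ADP-ribosyltransferase that AHR induces and that represses AHR in turn, read 9.18, 9.20, 9.53 and 9.46 with DMSO. With KynA it read 9.93, 9.66, 10.11 and 10.14, above all DMSO arrays. Its difference was 0.61 ± 0.135 (SE, n = 4; adjusted p = 0.469), and it passed with the block (adjusted p = 0.0333).

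IL1B, the proinflammatory cytokine interleukin-1 beta, showed how far the block can move a call. With DMSO its arrays read 7.53, 8.24, 7.36 and 7.43, and with KynA 8.80, 9.09, 8.21 and 8.17. DMSO 2 lay above KynA 3 and KynA 4, so the groups overlapped, and number 2 was highest in both. The DMSO mean of 7.64 ± 0.407 (SD, n = 4) lay below the filter level. The difference was 0.92 ± 0.256 (SE, n = 4; adjusted p = 0.923) without the block. At equal number the differences were 1.27, 0.84, 0.85 and 0.74, and the block, with an SE 2.79 times smaller, placed IL1B first of all genes by p (adjusted p = 0.00737).

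CCL2, the chemokine that draws monocytes, read 7.47, 6.68, 7.07 and 6.92 with DMSO and 7.83, 7.54, 7.99 and 7.72 with KynA. The groups did not overlap, although DMSO 1 lay just below KynA 2. The difference was 0.73 ± 0.147 (SE, n = 4; adjusted p = 0.284, and 0.0333 with the block). Its mean was dim with DMSO, at 7.04 ± 0.335 (SD, n = 4), and without DMSO 1 it passed with no block (difference 0.88, adjusted p = 0.048). CCL2 passed in no other such fit that left out 1 array, where its difference fell as low as 0.61.

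Whether equal numbers pair these samples was checked on the deviations from the group means across all genes tested. The correlations between the DMSO and KynA arrays of equal number were -0.03, 0.18, 0.16 and -0.05 for numbers 1 to 4. Between arrays of unequal number they ran from -0.24 (DMSO 2 with KynA 3) to 0.19 (DMSO 2 with KynA 1). Only 2 of the 4 at equal number were above 0.1, and none exceeded the highest at unequal number. This check left out the FICZ arrays, which the block fit also uses, and so few correlations cannot settle whether the numbers pair the samples. As the labels state no pairs either, the calls that need the block are given as values of that fit. The block calls also became fewer when all arrays of 1 number were left out. Such fits hold fewer arrays, and whether the number or the smaller fit lowered the count was not tested. Leaving out all arrays of number 1 left 3 block calls (SLC16A6, CCL2 and IL1B) and leaving out number 4 left 3 (IL1B, SLC16A6 and CYP1B1), whereas leaving out number 2 or number 3 left 0. With the block as a random term, whose estimated correlation was 0.0685, SLC16A6 alone passed.

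**Figure D2:**
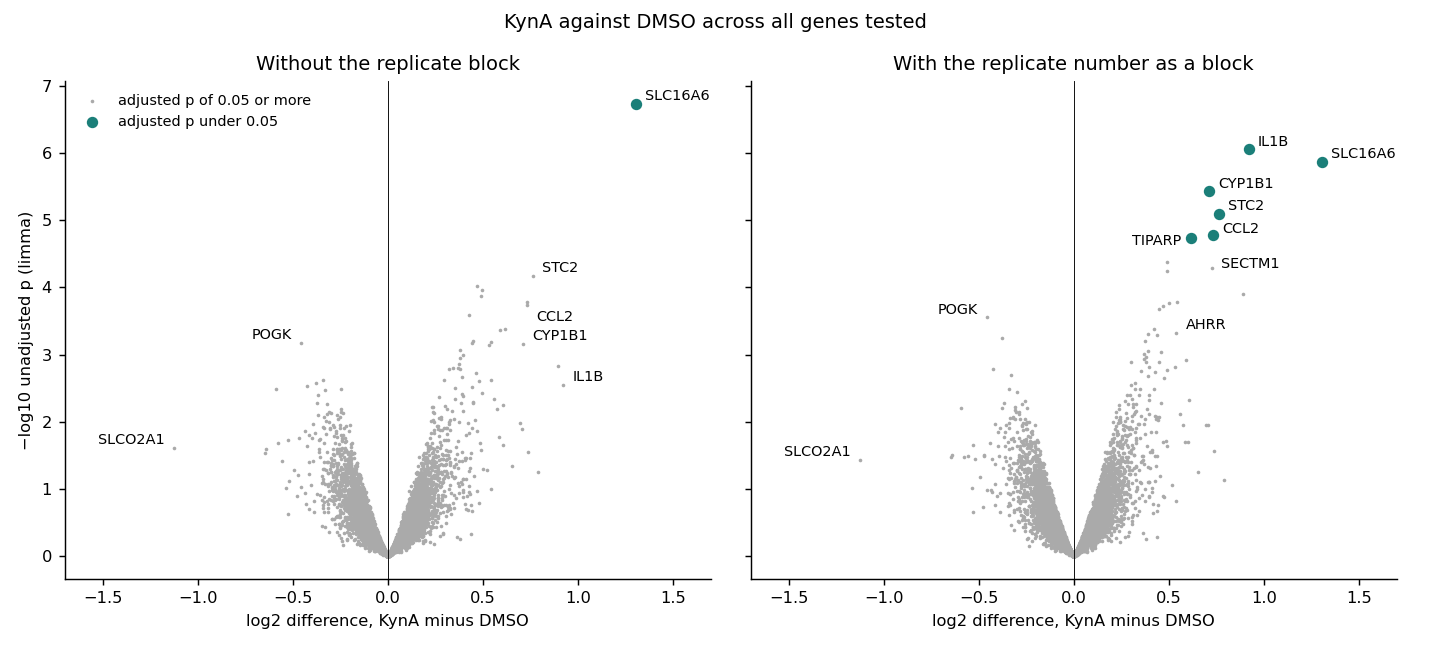
Log2 difference between KynA and DMSO (horizontal axis) against the −log10 of the unadjusted limma p (vertical axis) for all 10807 genes tested, without the block (left) and with the replicate number as a block (right). Large points are genes with an adjusted p under 0.05, 1 on the left and 6 on the right, all to the right of 0.

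Promoter sequence was looked up for the 6 genes that passed with the block, because AHR with ARNT binds the core GCGTG. RefSeq's table for GRCh38.p14 gives 300 bases per start, 250 before and 50 after. It held entries for STC2, TIPARP and IL1B; SLC16A6, CYP1B1 and CCL2 had none there. The 3 windows below run 5′ to 3′ on the gene's strand, with capitals for GCGTG and for CACGC, the same core on the opposite strand. They are STC2 at chr5:173328365-173328664 on the minus strand, TIPARP at chr3:156674340-156674639 on the plus strand (the first of its 3 listed starts) and IL1B at chr2:112836730-112837029 on the minus strand.
STC2: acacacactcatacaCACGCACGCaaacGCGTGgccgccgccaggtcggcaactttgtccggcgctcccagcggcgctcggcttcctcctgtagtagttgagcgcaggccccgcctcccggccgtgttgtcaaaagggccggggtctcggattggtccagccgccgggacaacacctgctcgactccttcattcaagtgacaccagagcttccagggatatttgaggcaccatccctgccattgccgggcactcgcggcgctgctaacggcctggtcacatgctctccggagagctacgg
TIPARP: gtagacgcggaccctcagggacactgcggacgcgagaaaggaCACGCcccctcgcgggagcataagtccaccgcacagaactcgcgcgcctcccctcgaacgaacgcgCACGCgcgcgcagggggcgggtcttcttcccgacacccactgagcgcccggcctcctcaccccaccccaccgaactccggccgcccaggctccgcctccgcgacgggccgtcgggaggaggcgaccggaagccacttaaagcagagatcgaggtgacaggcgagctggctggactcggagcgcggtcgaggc
IL1B: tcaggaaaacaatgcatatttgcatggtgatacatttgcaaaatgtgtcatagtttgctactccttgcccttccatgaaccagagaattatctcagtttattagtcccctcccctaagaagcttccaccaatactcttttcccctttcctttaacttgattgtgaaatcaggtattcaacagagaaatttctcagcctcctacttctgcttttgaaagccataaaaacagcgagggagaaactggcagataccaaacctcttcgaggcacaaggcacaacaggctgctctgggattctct
The STC2 window holds 3 matches, 1 on the gene's strand and 2 overlapping ones on the other. The TIPARP window holds 2, both on the opposite strand and 208 and 142 bases before the start, and the IL1B window holds 0. The windows of the other 2 TIPARP starts, not printed, hold 0 as well. The core is short: 12832 of 35116 windows in the table (36.5%) hold at least 1 match on either strand. A match is no evidence of binding, and the lack of one speaks only of these letters in this window.

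The wider set of AHR targets was uneven. Of 8 genes in the list of the textbook AHR battery, 6 were tested; none passed without the block, 2 (CYP1B1 and TIPARP) passed with it, and the median difference was 0.29 on the log2 scale beside -0.01 over all genes tested. With the filter at the 50th percentile this median was 0.54. AHRR, the repressor that competes with AHR for ARNT, read 8.30, 8.09, 8.52 and 8.47 with DMSO and 9.07, 8.36, 9.001 and 9.11 with KynA. KynA 2 stood below the other KynA arrays and among the DMSO arrays. The AHRR difference was 0.54 ± 0.147 (SE, n = 4; adjusted p = 0.854, and 0.291 with the block), and without KynA 2 it passed with no block (difference 0.72, adjusted p = 0.047). AHRR passed in no other such fit that left out 1 array, where its difference fell as low as 0.46.

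The oxidoreductase NQO1, which AHR and NRF2 both induce, had a difference of -0.01 ± 0.13 with a 95% interval of -0.29 to 0.27, and its sign turned with cyclic loess. The aldehyde dehydrogenase ALDH3A1 had 0.03 ± 0.142 (-0.27 to 0.34) and the liver enzyme gene CYP1A2 -0.13 ± 0.161 (-0.48 to 0.21). None of these intervals reaches the interval of SLC16A6, and all of them cover 0. CYP1A1 was not analysed here.

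Of 15 genes listed as other responders to AHR ligands, 10 were tested and 9 had a positive difference, beside 5140 of all 10807 genes tested. The median was 0.18 (0.112 with no filter and 0.117 without DMSO 4). This list was chosen with earlier results of these data known, so its count and median are given as values only. Of the 10 tested members, 2 (STC2 and IL1B) passed with the block. The EGF-family growth factor EREG read 10.71, 10.28, 10.48 and 10.54 with DMSO and 11.11, 10.73, 11.19 and 11.16 with KynA. The groups were separated by a narrow gap between DMSO 1 and KynA 2. The EREG difference was 0.54 ± 0.125 (adjusted p = 0.494, and 0.154 with the block). The collagenase MMP1 had 0.44 ± 0.154 (unadjusted p = 0.0122, adjusted p = 1). AHR itself had a difference of 0.01 ± 0.0758 (95% interval -0.15 to 0.17), ARNT -0.06 ± 0.0902 (-0.26 to 0.13) and the chaperone gene HSP90AA1 -0.07 ± 0.0848 (-0.25 to 0.11). None of the 5 tested members of the AHR complex passed.

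The tested enzymes of the kynurenine pathway, among them some that form KynA, gave no call. Of 14 listed genes of the kynurenine pathway, 9 had a cluster of their own and 6 were tested, with a median difference of -0.10, which became -0.00868 with the filter at the 50th percentile. Among the aminotransferases that form KynA, AADAT went from 9.07 ± 0.146 to 8.87 ± 0.11 (SD, n = 4), a difference of -0.20 ± 0.12 with a 95% interval of -0.46 to 0.06. CCBL1, the array's older symbol for KYAT1, had -0.13 ± 0.11 (-0.36 to 0.11), and the mitochondrial aspartate aminotransferase GOT2 had 0.06 ± 0.0749 (-0.10 to 0.22). Kynureninase, encoded by KYNU, which takes kynurenine into the branch toward NAD, had 0.06 ± 0.124, with a sign that turned when single arrays were left out. HAAO, a later oxygenase of that branch, had -0.18 ± 0.188, and AFMID, the formamidase that forms kynurenine, had -0.07 ± 0.107. TDO2, CCBL2 (KYAT3) and IL4I1, an amino acid oxidase whose tryptophan products feed AHR, were dim and not tested; IL4I1 read 7.33 ± 0.166 with DMSO and 7.43 ± 0.147 with KynA (SD, n = 4).

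The surface receptors of KynA were mostly dim. Of 19 listed genes, 12 had a cluster and 3 passed the filter. GPR35, the G protein-coupled receptor, was dim in both groups, at 7.54 ± 0.332 with DMSO and 7.47 ± 0.29 with KynA (SD, n = 4). Dim signals on an array do not tell an absent transcript from a low one. The 3 tested glutamate receptor subunits were GRIN2C, of the NMDA type, with a difference of -0.26 ± 0.149, GRIA1, of the AMPA type, with -0.20 ± 0.0869, and GRIK3, of the kainate type, with -0.16 ± 0.152. None passed; GRIA1 had the lowest unadjusted p, at 0.038. The median of the 3 was -0.20, and that of all 12 with a cluster was -0.02 with no filter.

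Of the 6 tested genes for KynA or kynurenine transport, SLC7A8, a light chain of the system L amino acid exchanger, had the largest difference. It read 9.54, 9.57, 9.65 and 9.83 with DMSO and 10.08, 9.89, 10.08 and 9.92 with KynA, without overlap. The difference of 0.34 ± 0.0882 missed the threshold (adjusted p = 0.719). SLC7A5, the other light chain, had 0.13 ± 0.0978, and their shared heavy chain SLC3A2 had 0.00 ± 0.0949 with a 95% interval of -0.20 to 0.20. The other 3, SLC22A6, ABCC4 and ABCG2, had differences from -0.04 to 0.11.

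SLC16A6 was the 1 gene of its family to pass. Of 18 listed monocarboxylate transporters and their partners, 8 were tested, and the other 7 had differences between -0.20 (SLC16A4) and 0.09 (SLC16A3). Listed members that were dim were read in the fit with no filter, where none of them passed. There SLC5A8 had 0.40 ± 0.127 from a DMSO mean of 7.31, SLC16A5 0.08 ± 0.138 and SLC16A14 -0.02 ± 0.14. The lactate transporters SLC16A1 (-0.11 ± 0.0846), SLC16A3 (0.09 ± 0.155) and SLC16A7 (0.04 ± 0.114) had 95% intervals that covered 0, as did their chaperone BSG (-0.03 ± 0.0775). The signs of SLC16A3, SLC16A7 and BSG turned when single arrays were left out.

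Across all genes KynA moved little at this precision. The median absolute difference was 0.07 on the log2 scale, the 95th percentile 0.24 and the 99th 0.39. The median SE was 0.106 without the block and 0.0975 with it, and the median 95% interval reached 0.23 to either side. An unadjusted p under 0.05 was found for 202 higher genes (1.87%) and 164 lower genes (1.52%), a smaller share together than the 0.05 that this threshold passes when no gene differs. With the block the number was 456 of 10807 in both directions, also a smaller share than 0.05.

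Differences beyond 1.5-fold were found for 21 genes, 17 higher and 4 lower with KynA. The DMSO mean of 16 of these lay below the higher of the filter levels, against 7.83% of all genes tested, so large folds came mostly from dim signals. The 2 genes beyond a log2 difference of 1 were SLC16A6 and the prostaglandin transporter SLCO2A1, which is named after its values were seen. SLCO2A1 read 8.22, 8.32, 8.20 and 8.83 with DMSO and 6.78, 8.42, 6.77 and 7.11 with KynA. KynA 2 lay among the DMSO arrays and the other 3 KynA arrays below them, which gave a difference of -1.13 ± 0.446 (adjusted p = 1).

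All 4 KynA arrays lay above all 4 DMSO arrays for 122 genes (1.13%) and below them for 138 (1.28%). The 10 largest positive differences among them ran from 0.56 to 1.31. They belonged to SLC16A6, STC2, CLEC4D, CCL2, SECTM1, CYP1B1, TIPARP, PAX7, TINAG and HRG, of which 5 passed with the block. SECTM1, a secreted and transmembrane ligand of T cell CD7, read 7.14, 6.91, 7.11 and 7.45 with DMSO and 7.88, 7.54, 8.23 and 7.90 with KynA. Its difference of 0.73 ± 0.144 missed the threshold in both fits (adjusted p = 0.284, and 0.0689 with the block), and its DMSO mean of 7.15 was dim. The myeloid lectin CLEC4D (0.74 ± 0.302), the muscle stem cell factor PAX7 (0.59 ± 0.13), the basement membrane glycoprotein TINAG (0.59 ± 0.216) and the plasma glycoprotein HRG (0.56 ± 0.166) were dim with DMSO too, with means of 7.15, 7.40, 7.47 and 7.32.

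The 10 largest negative differences without overlap were smaller, from -0.36 to -0.59, and none passed. POGK, a KRAB-domain gene derived from a transposable element, read 8.12, 8.40, 8.40 and 8.15 with DMSO and 7.78, 8.06, 7.81 and 7.60 with KynA. Its difference was -0.46 ± 0.106 (adjusted p = 0.494, and 0.2 with the block). The imprinted hydrolase-like gene MEST had -0.43 ± 0.119, the actin regulator COBLL1 -0.38 ± 0.104 and the translation initiation factor subunit EIF3J -0.43 ± 0.168. CCT6P3, a chaperonin pseudogene whose probes may also read related genes, had -0.59 ± 0.167, with KynA 3 lowest at 7.31. The others were the malic enzyme ME3, the lipid-binding adaptor SH3YL1, WDR25, the ribosomal RNA processing factor FCF1 and the small nucleolar RNA SNORD111, at -0.36 to -0.39.

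**Figure D3:**
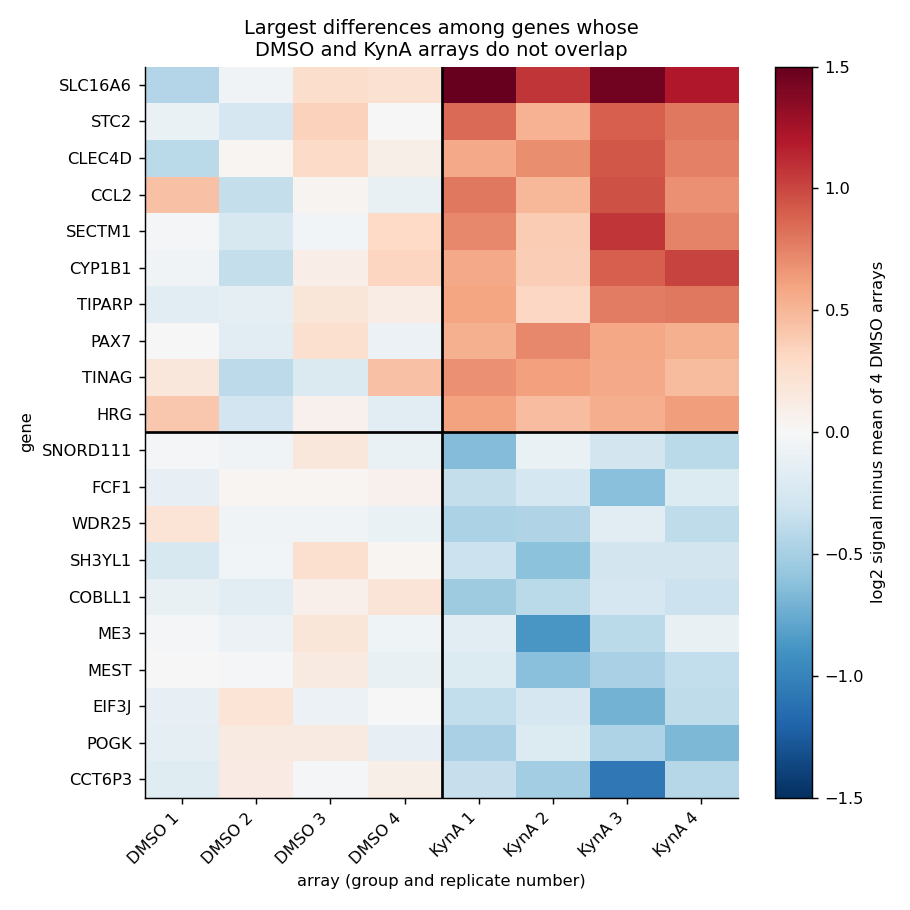
Log2 signal minus the mean of the 4 DMSO arrays (colour) for the 20 genes with the largest differences among those whose DMSO and KynA arrays do not overlap (rows), in each of the 8 arrays (columns). SLC16A6 is the darkest row. The upper 10 genes reach 1.31 in their mean difference and the lower 10 reach -0.59.

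Among the other gene lists, the inflammatory list had 11 tested members, of which CCL2 and IL1B passed with the block, and its median was 0.06. LIF, a cytokine of the interleukin-6 family, had 0.20 ± 0.125 and the NF-kB inhibitor NFKBIA 0.14 ± 0.0925. IL1B also stands in the list of AHR-responsive genes, and STC2 also in the list of ATF4 stress response genes, where it was the 1 of 14 tested members to pass with the block (median 0.05). By p the next ATF4 members were CEBPB (0.17 ± 0.0829), VLDLR (0.16 ± 0.0969) and CHAC1 (0.20 ± 0.128), and the largest difference after STC2 was that of SLC7A11 (0.33 ± 0.24); none of the 4 passed. Without KynA 4 the ATF4 median was 0.107.

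No member of the remaining lists passed in either fit. In the list of hypoxia and glycolysis genes (25 tested, median 0.01), the angiogenic factor VEGFA had 0.24 ± 0.0801 without overlap (unadjusted p = 0.00953) and the hexokinase HK2 0.29 ± 0.103. The immediate early gene IER3 had 0.31 ± 0.0975 and IER2 -0.20 ± 0.0689 in a list of 14 with a median of 0.03. Of 32 tested matrix and protease genes, 25 had a positive difference (median 0.04), beside 5140 of all 10807 genes tested. COL4A2, a basement membrane collagen, had 0.29 ± 0.126 and the matrix glycoprotein THBS1 0.50 ± 0.236.

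Proliferation genes leaned the other way by small amounts. Of 31 tested G1/S and replication genes 28 had a negative difference, and of 30 tested G2/M and mitosis genes 26 had one, beside 5667 of all 10807 genes. Both medians were -0.06, and they stayed negative with median centring and with cyclic loess. The mitotic cyclin CCNA2 (-0.27 ± 0.0972) and the replication factor GINS2 (-0.25 ± 0.119) were furthest from 0. Members of a list were read on the same 8 arrays, so such counts are not counts of independent observations.

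Of 16 tested genes of cholesterol and fatty acid synthesis 12 had a negative difference (median -0.08), beside 5667 of all 10807 genes. The squalene epoxidase SQLE had -0.25 ± 0.107. The p53 targets (17 tested) had a median of -0.06, which became -0.0151 without DMSO 4 and -0.0146 without KynA 4. The NRF2 targets (12) had a median of -0.01 and the interferon and antigen presentation genes (17) one of 0.00. The cystine transporter SLC7A11, an NRF2 target, had 0.33 ± 0.24. Of the 17 p53 targets, 7 had a positive and 10 a negative difference. Among the 4 with the smallest p, GADD45A (-0.19 ± 0.0723), XPC (-0.17 ± 0.0764) and SESN1 (-0.23 ± 0.116) were lower. The p53-induced cell cycle inhibitor CDKN1A, at 0.19 ± 0.105, was higher.

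**Figure D4:**
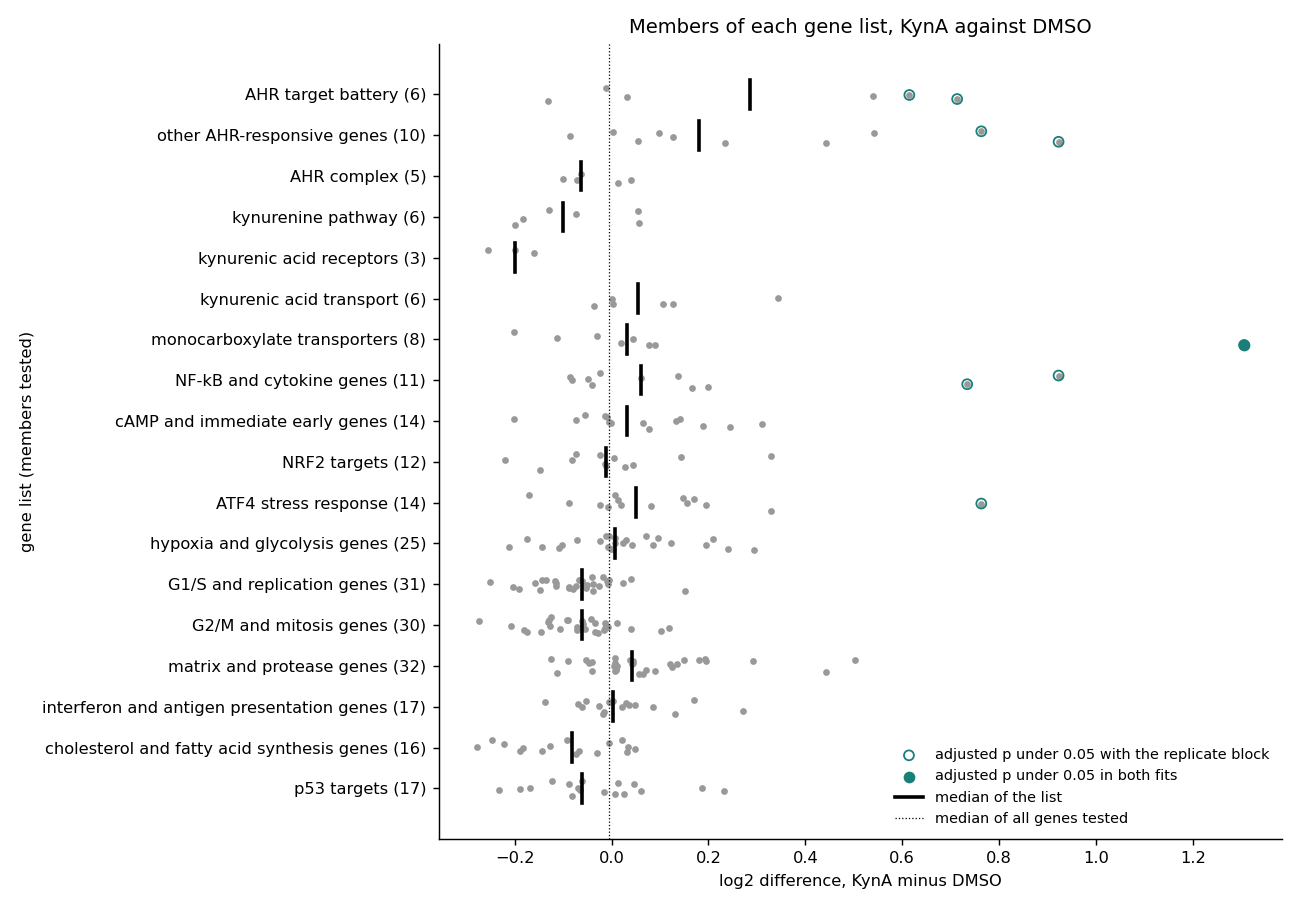
Log2 difference between KynA and DMSO (horizontal axis) for each tested member of 18 gene lists (rows, number tested in brackets). Thick bars are list medians, the dotted line is the median of all genes tested (-0.01), open circles passed with the block and the filled circle, SLC16A6, passed in both fits. The highest list median is 0.29, for the AHR battery.

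FICZ was measured against the same 4 DMSO arrays and at another dose, so its values are set beside those of KynA without a comparison. FICZ against DMSO gave 92 genes with an adjusted p under 0.05 (0.851%) in the same fit. For SLC16A6 the FICZ difference was 2.51 ± 0.139, beside 1.31 for KynA, and for IL1B it was 2.20 ± 0.256, beside 0.92. For CYP1B1 it was 1.07 ± 0.165, for TIPARP 1.21 ± 0.135, for AHRR 0.97 ± 0.147, for STC2 1.05 ± 0.137 and for CCL2 0.93 ± 0.147. SECTM1 had 1.52 ± 0.144 and EREG 0.91 ± 0.125 with FICZ. For CLEC4D the FICZ difference was 0.20 ± 0.302, beside 0.74 for KynA, and for TINAG 0.11 ± 0.216, beside 0.59. Among the genes lower with KynA, the FICZ difference was -0.83 ± 0.119 for MEST, -0.57 ± 0.106 for POGK and 0.03 ± 0.114 for SH3YL1. The 2 proliferation lists had medians of -0.23 (G1/S) and -0.29 (G2/M) with FICZ.

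**Figure D5:**
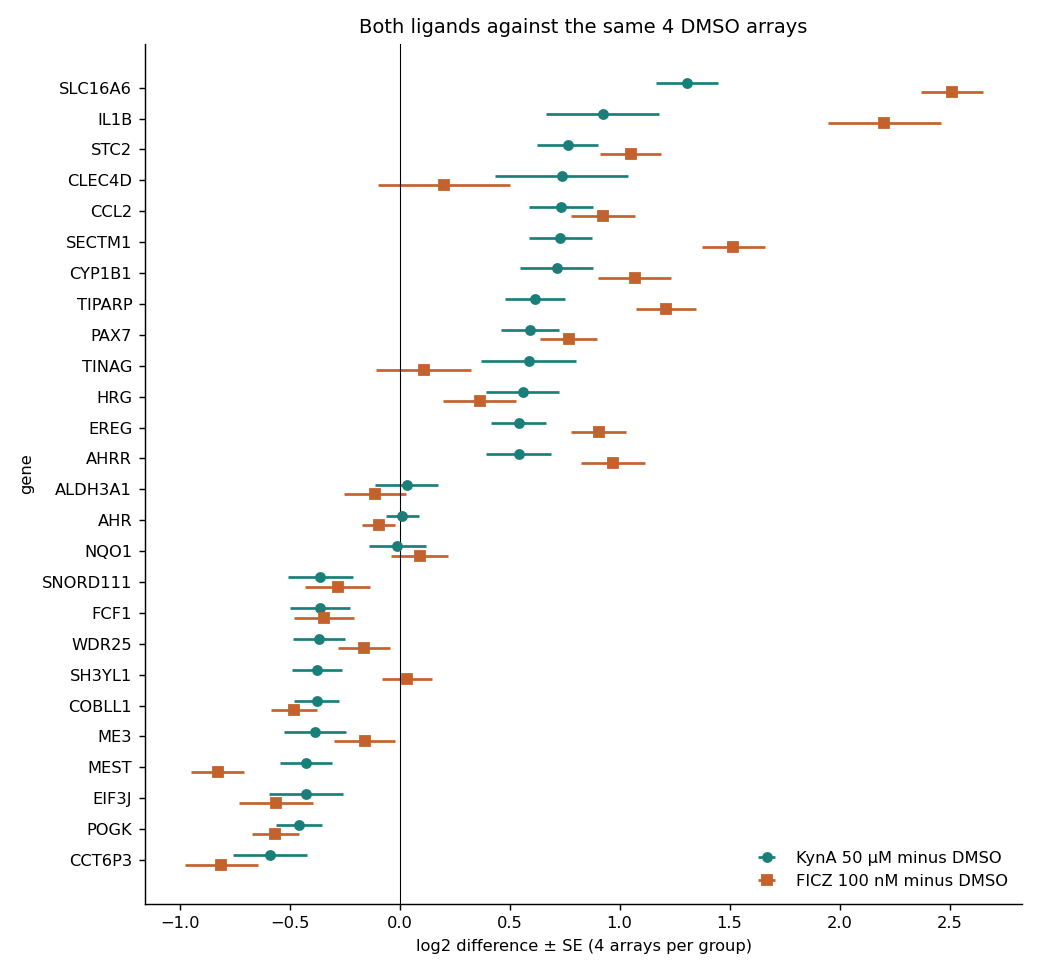
Log2 difference from DMSO ± SE (horizontal axis, 4 arrays per group) for named genes (rows) with 50 µM KynA (circles) and 100 nM FICZ (squares). Both ligands share the 4 DMSO arrays. The SLC16A6 values are 1.31 and 2.51, and those of NQO1, ALDH3A1 and AHR lie within 0.12 of 0 for both ligands.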

How the data were processed

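Each of the 12 samples was hybridised to its own Affymetrix array. Per the submitters' processing notes the authors ran RMA in oligo, which gave the deposited log2 signals. The sources used here give no versions and no rule by which dim clusters were left out. Gene symbols were those of the platform annotation and can be old; 744 clusters had several symbols and 1438 had no symbol. Where a gene had several clusters (45 genes), the brightest on average was kept.

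limma 3.58.1 in R 4.3.3 fitted group means over 12 arrays (9 residual and 5.19 prior degrees of freedom), with two-sided moderated tests of KynA minus DMSO and Benjamini-Hochberg adjustment over 10807 genes; a gene passed at 0.05. The block fit added the replicate number (6 residual degrees of freedom). The fit was tested on simulated data. Precision is limited by the number of arrays, since no depth applies to them.

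The members and lists were chosen with earlier results of these data known. Named were genes that passed in any of these fits, the 10 largest differences each way without overlap, a fixed set of AHR and KynA genes, the tested members of the KynA and transporter lists in full or by range, and up to 4 members of each list with the smallest p. Lists got no set test. Alternatives were other centring, filters, cluster choice, variance model, array weights, blocks and leaving out each array. The tools also included data.table, version 1.17.8, Python 3.11.15, pandas 2.3.3 and matplotlib 3.10.9.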

Additional observations from a re-analysis of the deposited data

Results flagged for a closer look

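A single array stood far from the other 3 of its group in 11 of 190 tests on named genes (5.79%), where chance alone flags about 1 group in 20. KynA 2 was the array in 6 of the 11. It was low for EREG (10.73, beside 11.11 to 11.19 in the other KynA arrays), AHRR (8.36, beside 9.001 to 9.11) and SH3YL1 (7.26, beside 7.55 to 7.60). It was high for IER3 (10.53, beside 10.32 to 10.34), LIG1, a DNA ligase (8.49, beside 8.43 to 8.44), and the glucose transporter SLC2A1 (9.96, beside 9.55 to 9.62). SLC2A1 was also high in DMSO 2 (9.67, beside 9.41 to 9.45). WDR25 was high in DMSO 1 (8.42, beside 8.12 to 8.17), and the mitotic factor TPX2 was low in DMSO 1 (11.41, beside 11.53 to 11.54) and in KynA 3 (11.27, beside 11.40 to 11.42). SLC16A7 was high in KynA 4 (9.12, beside 8.69 to 8.75). The share of flagged groups was near that of chance, and whether anything sets these arrays apart was not tested.

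Clusters with several symbols or none lay outside the comparison of genes, and 1494 of them passed the same filter. Of these, 1 passed limma's test with Benjamini-Hochberg adjustment over the 1494, transcript cluster 16813856, which has no symbol in the annotation. It read 9.23, 9.15, 9.11 and 9.09 with DMSO and 9.73, 9.69, 9.85 and 9.98 with KynA, without overlap. The difference was 0.67 ± 0.1 on the log2 scale (adjusted p = 0.0195, and 0.0479 with the block). Next by p stood a cluster shared by SERPINB2, one of the listed other responders to AHR ligands, and SERPINB10. It read 6.95, 6.79, 7.10 and 7.15 with DMSO, below the filter level, and 7.30, 7.79, 8.04 and 7.93 with KynA. Its difference of 0.76 ± 0.144 missed the threshold in both fits (limma adjusted p = 0.0943, and 0.0846 with the block).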

How the results depend on the processing

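SLC16A6 alone passed with array weights, after median centring or cyclic loess, with the filter dropped or raised to the 50th percentile, with a gene's clusters averaged, with only the 8 DMSO and KynA arrays, with the random block, and without each FICZ array. The number of genes was 2 with a trended and robust variance (GREM1 added) and ranged from 1 to 2 without single DMSO or KynA arrays (CCL2 added without DMSO 1, AHRR without KynA 2). With the replicate block it was 6, and with the replicate block on only the 8 arrays it was 0, where SLC16A6 kept its difference of 1.31 with an adjusted p of 0.0805. The 6 block calls fell to between 0 and 3 when all arrays of 1 number were left out, a choice added after seeing the data. These block values are given although the numbers were not shown to pair the samples.

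Differences near 0 changed sign. With cyclic loess NQO1 had 0.00108 and ABCG2 -0.00219, and with array weights ABCG2 had -0.0195. Without single arrays the log2 differences ranged from -0.0821 to 0.124 for NQO1, -0.0661 to 0.0547 for ABCG2, -0.0392 to 0.0544 for SLC3A2, -0.0953 to 0.0961 for ALDH3A1, -0.00815 to 0.0614 for AHR, -0.0372 to 0.145 for ARNT2, -0.0296 to 0.174 for KYNU, -0.104 to 0.0375 for ABCC4, -0.059 to 0.00143 for BSG, -0.0192 to 0.201 for SLC16A3, -0.0547 to 0.101 for SLC16A7, -0.00616 to 0.225 for SLC22A6 and -0.0834 to 0.149 for SLC5A12. List medians moved with the filter and with single arrays. The AHR battery reached 0.54 at the 50th percentile, where no KynA receptor was left to give a value; the kynurenine pathway had -0.00868 there, and with no filter the other AHR-responsive genes had 0.112 and the receptors -0.0248. Single arrays moved the AHR complex to -0.0197 (without KynA 4), the p53 targets to -0.0151 and -0.0146 (without DMSO 4 or KynA 4), ATF4 to 0.107 (without KynA 4) and the other AHR-responsive genes to 0.245 and 0.117 (without DMSO 1 or DMSO 4). The medians of the NRF2, hypoxia, interferon, KynA transport and monocarboxylate transporter lists changed sign without single arrays. With 4 arrays a group, differences within about 0.23 of 0 could not be told from 0 for a typical gene by its unadjusted 95% interval. Adjustment over all genes tested asks for more. Without the block, STC2 at 0.76 and GREM1 at 0.47 did not pass (limma adjusted p = 0.284 for each).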

Other observations

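Other genes stood near the top by unadjusted p but outside the rule for named genes, and they are given after their values were seen. The BMP antagonist GREM1 read 11.03, 10.96, 11.12 and 11.19 with DMSO and 11.63, 11.37, 11.70 and 11.48 with KynA, without overlap. Its difference was 0.47 ± 0.0875 on the log2 scale (SE, n = 4; limma adjusted p = 0.284), and it passed with a trended and robust variance. The extracellular matrix gene FREM1 had 0.49 ± 0.0934, the sialyltransferase ST8SIA5 0.49 ± 0.0947 and the secretory granule chaperone SCG5 0.42 ± 0.0879, all without overlap and none past the threshold in either fit. The retinoic acid-forming dehydrogenase ALDH1A3 had 0.45 ± 0.103, the tyrosine kinase JAK3 0.44 ± 0.102, the haem synthesis enzyme CPOX 0.53 ± 0.124 and the focal adhesion protein LPXN 0.38 ± 0.0895, also without overlap.

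The neuronal pentraxin NPTX1 had a difference of 0.89 ± 0.227, but was dim in both groups, with means of 6.72 with DMSO and 7.61 with KynA below the filter level; its FICZ arrays were above it. It read 6.56, 6.27, 7.03 and 7.02 with DMSO and 7.79, 6.88, 8.05 and 7.73 with KynA. KynA 2 lay among the DMSO arrays and the other KynA arrays above them. The adjusted p was 0.719, and 0.135 with the block. KDR, the VEGF receptor that was listed here as an endothelial marker, had 0.37 ± 0.0939 without overlap (adjusted p = 0.719). Of the other 2 tested endothelial markers, VWF had -0.08 ± 0.192 and EGFL7 -0.18 ± 0.0887. All arrays came from the U-87MG line, and why KDR differed from these markers was not tested.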
